A study of Mus musculus with 2 samples.

Results

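The levels of 10 genes that regulate or mark stem and progenitor cells of the pilosebaceous unit were measured in single cells of back skin and of the preputial gland (PG), a large paired gland of sebocytes. The genes were Lrig1, Gata6, Lgr5, Lgr6, Sox9, Plet1, Cd34, Lhx2, Nfatc1 and Prdm1, chosen by symbol, and all 10 of them were found among the 32285 genes of both tables. Both tissues came from the same kind of animal, male wild type C57BL/6 mice aged 52 weeks, with no treatment or allele beyond that. The tissue of 3 mice was pooled before dissociation and made into 1 droplet library per tissue, so there were 2 libraries, no replicates and no test, and tissue, library and pool cannot be told apart.

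The pilosebaceous unit joins a hair follicle to its sebaceous gland, and separate pools of epithelial cells renew its parts. In the lower bulge of mouse follicles, the transcription factors Sox9, Lhx2 and Nfatc1, the surface sialomucin Cd34 and the R-spondin receptor Lgr5 are known for resting or hair-forming stem cells. Above the bulge, the ERBB inhibitor Lrig1, the transcription factor Gata6, the surface protein Plet1 and the R-spondin receptor Lgr6 are known for the isthmus, junctional zone and duct, and the repressor Prdm1 (Blimp1) for sebaceous and differentiating cells.

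Barcodes needed 500 genes, 1000 unique molecular identifiers (UMIs) and no more than 10% mitochondrial UMIs to count as cells. This left 8899 skin cells with 27407186 UMIs and 4699 PG cells with 15270076 UMIs, at medians of 2386 and 2729 UMIs per cell. The barcode lists differed between the libraries, with 6794880 entries in skin and 737280 in PG, and no barcode kept as a cell was shared (0 of the 77142 that both lists hold). Cells were put into classes by summed marker genes, none of which was one of the 10 genes. In skin these were 1998 basal cells, 702 Krt24 follicle cells (Krt24, Grem1, Postn and Ptn were detected), 386 upper follicle cells (Krt79, Krt17, Cst6, Defb6 and Nebl), 388 hair matrix cells (Msx2, Dlx3, Hoxc13, Krt35 and Krt31) and 51 sebocytes (all 8 markers). A further 827 skin cells held basal markers and a raised sum of upper follicle markers without reaching that class, and are called Krt17 keratinocytes. In PG the same gates, with a sebocyte cut-off of 60 marker UMIs per 10000 in place of the 15 used in skin, gave 1104 gland basal cells, 660 sebocytes, 355 cells that passed the upper follicle gate (called Krt79 cells) and 651 Krt17 keratinocytes, but 2 Krt24 follicle cells and 0 hair matrix cells.

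These classes are ranges of a marker score rather than separate types. Within 20% of the cut-off lay 43 Krt24 follicle cells, 14 upper follicle cells, 12 hair matrix cells and 4 sebocytes of skin, and 120 gland basal cells and 98 sebocytes of PG. Only Krt15, Itgb4 and Dst of the 9 basal markers were at least 3-fold above the rest of the PG cells in gland basal cells; Krt14 was at 1879.8 UMIs per 1000000 (CPM) in them and 1764.6 in the rest. Levels below are CPM, the UMIs of a gene over all UMIs of the class, with exact 95% Poisson intervals in brackets. Ratios carry exact 95% binomial intervals, and all intervals describe counting error and leave out differences between animals. A gene was set against the 2-fold rule where the classes compared held at least 10 of its UMIs together.

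**Figure D1:**
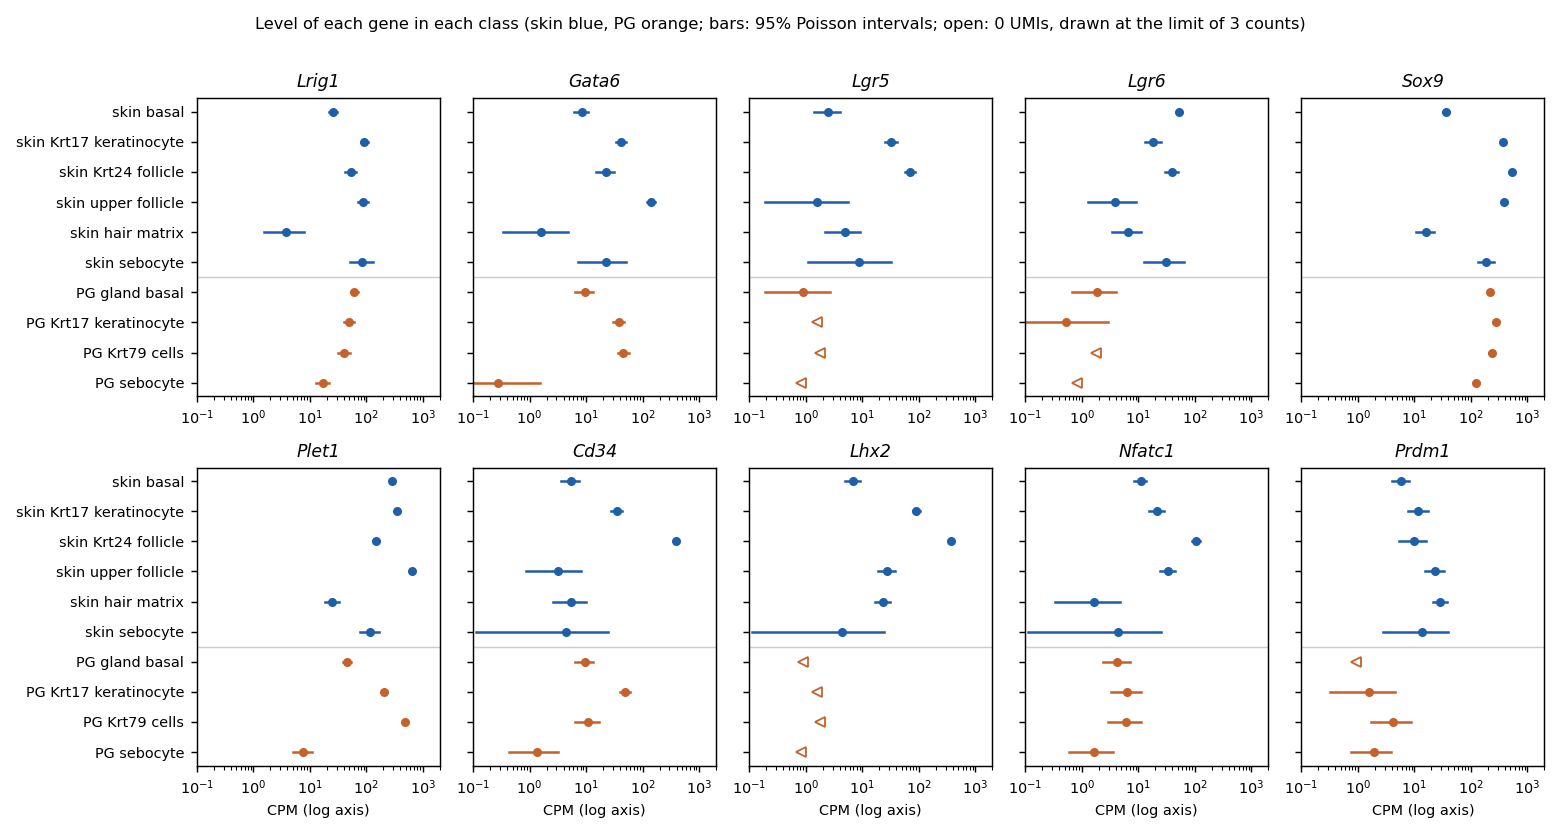
Level of each of the 10 genes in 6 classes of skin (blue) and 4 classes of PG (orange), in CPM on a log axis that starts at 0.1. Points are class levels, bars are exact 95% Poisson intervals (drawn from 0.1 where they start lower) and open triangles are classes with 0 UMIs, set at the limit of 3 counts; Lhx2 has open triangles in all 4 PG classes.

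Sox9, Cd34, Lhx2, Nfatc1 and Lgr5 were all highest, among the 6 epithelial classes of skin, in Krt24 follicle cells. Against skin basal cells, 7 of the 10 genes were at least 2-fold higher in Krt24 follicle cells, where 15% of 11980 genes were, and 0 were at least 2-fold lower, where 7.7% of all genes were. The ratios of Cd34, Lhx2 and Lgr5 were 72.9-fold, 54.5-fold and 28.1-fold, the first against a basal level of 32 UMIs that is described below.

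Promoters are shown for Lhx2 and Cd34, which were far above basal cells in this class, and for Lgr6, the member that was highest in basal cells. They are RefSeq sequences of build GRCm38.p6, 250 bases before to 50 after an annotated start (for Lhx2, 1 of 2 starts listed), so they hold the upstream region and the beginning of exon sequence. Lhx2 lies at chr2:38339031-38339330 (plus strand), Cd34 at chr1:194938571-194938870 (plus strand) and Lgr6 at chr1:135105227-135105526 (minus strand), and each is printed 5′ to 3′ with matches to 4 motifs in capitals.
Lhx2: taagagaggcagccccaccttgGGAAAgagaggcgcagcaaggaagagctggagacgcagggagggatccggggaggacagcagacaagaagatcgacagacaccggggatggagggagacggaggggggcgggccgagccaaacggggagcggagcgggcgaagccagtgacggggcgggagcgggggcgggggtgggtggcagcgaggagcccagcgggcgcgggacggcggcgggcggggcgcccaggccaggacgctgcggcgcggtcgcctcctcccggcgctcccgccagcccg
Cd34: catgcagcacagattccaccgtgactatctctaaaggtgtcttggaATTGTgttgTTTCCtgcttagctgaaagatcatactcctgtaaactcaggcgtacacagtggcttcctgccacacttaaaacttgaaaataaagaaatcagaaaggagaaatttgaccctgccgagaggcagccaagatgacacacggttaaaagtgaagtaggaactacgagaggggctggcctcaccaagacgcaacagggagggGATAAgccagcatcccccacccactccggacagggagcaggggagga
Lgr6: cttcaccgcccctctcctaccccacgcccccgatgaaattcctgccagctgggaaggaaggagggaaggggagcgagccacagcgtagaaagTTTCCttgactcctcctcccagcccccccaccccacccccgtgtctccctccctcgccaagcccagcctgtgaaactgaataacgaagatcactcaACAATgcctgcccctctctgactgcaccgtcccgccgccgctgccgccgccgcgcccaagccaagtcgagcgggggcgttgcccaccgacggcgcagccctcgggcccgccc
The motifs were ACAAT for SOX factors, GGAAA for NFAT factors, GATAA for GATA factors and TAATTA for LHX homeodomains, each searched on both strands. Among all 32544 promoters of the table, 30.8% held the SOX letters, 61.5% the NFAT letters, 25.3% the GATA letters and 5.29% the LHX letters, so the matches here are of common kinds. The Cd34 window held 1 SOX, 1 NFAT and 1 GATA match, the Lgr6 window 1 SOX and 1 NFAT match, and the Lhx2 window 1 NFAT match, with no overlap between matches. They also differed in base composition, with 34 CG dinucleotides in Lhx2, 24 in Lgr6 and 7 in Cd34, against a median of 7 over all promoters.

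Cd34 stood at 388 CPM (357 to 422; 560 UMIs) in Krt24 follicle cells and at 5.32 CPM (3.64 to 7.52; 32 UMIs) in skin basal cells. Cells with a Cd34 UMI made up 44.9% (41.1 to 48.6) of Krt24 follicle cells, 1.301% of basal cells and 2.03% of immune cells, at median depths of 1678, 2646 and 1756 UMIs. After all cells were thinned to 1000 UMIs, these shares were 33.0%, 0.565% and 1.09%, so the basal share did not exceed that in immune cells. The log2 ratio of Krt24 follicle over basal cells, 6.19, stayed between 5.67 and 7.10 under all alternatives run, among them subtraction of free RNA. The part of background in the basal level was not tested beyond that. Krt17 keratinocytes held 35.1 CPM, between both. In upper follicle and hair matrix cells Cd34 was at 3.15 and 5.42 CPM, where free RNA of the suspension would give 4.47 and 6.73 CPM, so these levels cannot be told from background.

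Lhx2, a LIM homeodomain factor, was likewise highest in Krt24 follicle cells, with Krt17 keratinocytes next. It was at 372 CPM (341 to 404; 536 UMIs) in Krt24 follicle cells, 90.9 in Krt17 keratinocytes, 27.5 in upper follicle cells, 23.3 in hair matrix cells, 6.82 in basal cells and 4.45 (1 UMI) in sebocytes of skin. Hair matrix cells therefore exceeded basal cells 3.42-fold (log2 1.77, interval 1.12 to 2.43), above the 3.30 CPM that free RNA would give.

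Sox9, needed to set up and keep the bulge, stood above basal cells in 4 classes. Its levels were 527 CPM (490 to 566) in Krt24 follicle cells, 382 (349 to 418) in upper follicle cells, 375 (350 to 401) in Krt17 keratinocytes and 187 (135 to 253) in sebocytes. Basal cells of skin held 36.1 CPM (31.5 to 41.2) and hair matrix cells 15.7 CPM (10.5 to 22.6), so all 4 former classes lay above both of the latter. Upper follicle cells and Krt17 keratinocytes, neighbours in this order, did not differ beyond counting error.

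Nfatc1, the calcineurin-dependent factor of resting bulge cells, was at 105 CPM (88.6 to 123; 151 UMIs) in Krt24 follicle cells and at 10.98 CPM (8.49 to 14.0) in basal cells, a 9.53-fold ratio. It reached 33.8 CPM in upper follicle cells and fewer than 4 UMIs in hair matrix cells and in sebocytes (3 and 1). Other genes of this pathway were tallied beside it. Of 5 NFAT and calcineurin genes with enough UMIs, 0 were at least 2-fold higher in Krt24 follicle cells and 0 lower, where 15% and 7.7% of all genes were, with a median log2 ratio of 0.19. Ppp3ca, the catalytic subunit of calcineurin, was at 210 and 179 CPM in Krt24 follicle and basal cells.

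Lgr5 was at 70.0 CPM (57.0 to 85.1; 101 UMIs) in Krt24 follicle cells, 32.4 (25.3 to 40.8) in Krt17 keratinocytes and 2.50 (1.397 to 4.12) in basal cells. The remaining skin epithelium held few UMIs, 9 in hair matrix cells, 2 in upper follicle cells and 2 in sebocytes. Its relative Lgr6 was highest in basal cells, at 51.7 CPM (46.1 to 57.8, from 311 UMIs). It was at 38.8 (29.3 to 50.4) in Krt24 follicle cells, 31.2 in sebocytes (7 UMIs), 18.4 in Krt17 keratinocytes, 6.51 in hair matrix cells and 3.93 in upper follicle cells. Krt24 follicle cells were 1.33-fold below basal cells, not past the 2-fold rule. The log2 ratio was -0.41 (-0.85 to -0.00027) and rose to 0.015 under an alternative. Lgr6 was thus the sole member of the 10 that upper follicle cells held at least 2-fold below basal cells (13.2-fold). Lgr4, the third receptor of the family, was at 101 CPM in Krt24 follicle cells and 17.0 in basal cells, and Fzd7, a Wnt receptor, at 85.3 and 7.32 CPM. Rspo3, a ligand of these receptors, was higher in basal cells, with 56.2 against 10.4 CPM. Of the 7 genes of the LGR pathway with enough UMIs, 3 were at least 2-fold higher and 1 lower in Krt24 follicle cells, where 15% and 7.7% of all genes were, at a median log2 ratio of -0.44.

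Detection of Sox9, Cd34 and Lhx2 in the same cell was frequent only in Krt24 follicle cells among the 3 skin classes examined. All 3 genes had a UMI in 90 of 702 Krt24 follicle cells (12.8%), in 3 of 1998 basal cells (0.150%) and in 1 of 386 upper follicle cells (0.259%). None of the 3 was seen in 94 Krt24 follicle cells and 1826 basal cells. Upper follicle cells had the other combination, with Lrig1, Gata6 and Plet1 together in 22 of 386 cells (5.70%), against 3 of 702 Krt24 follicle cells and 1 of 1998 basal cells. Such counts depend on depth, at medians of 1678, 2646 and 2653 UMIs in Krt24 follicle, basal and upper follicle cells.

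Krt17 keratinocytes also held follicle members above basal cells, at smaller ratios than Krt24 follicle cells for Cd34 (6.59-fold), Lhx2 (13.3-fold) and Lgr5 (13.0-fold). Against basal cells 7 of 10 were at least 2-fold higher in them, where 12.6% of 12149 genes were. Only 1 of 10, Lgr6 (2.81-fold), was lower, where 5.05% were. Prdm1 (2.01-fold) was the weakest call among the 7. It fell below 2-fold under 5 of the alternatives, down to log2 0.18 with classes taken from clusters. The class spanned several clusters of skin cells. Of its 827 cells, 294 lay in a cluster led by Cmah and 185 in one led by the sebocyte marker Cidea. Sebocyte markers had a mean of 2.80 UMIs per 10000 in the class, against 0.829 in basal cells. Krt24 follicle markers had a mean of 5.08, also above basal cells. The part of such cells in the levels of the class was not tested.

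Genes listed as neighbours of the bulge factors were also higher in Krt24 follicle cells. Of 11 with enough UMIs, 10 were at least 2-fold higher and 0 lower, where 15% and 7.7% of all genes were, with a median log2 ratio of 2.82. Dkk3, a secreted protein of the Dickkopf family, was at 186 against 4.16 CPM, the transcription factor Tbx1 at 110 against 3.49 and Foxc1 at 83.9 against 6.99. Sox4 was the exception at 50.6 against 86.5 CPM. The list was chosen with earlier results of these data known, so its count is a description. Nor was the list particular to this class. In Krt17 keratinocytes over skin basal cells 8 of 10 were higher and 0 lower, where 12.6% and 5.05% of all genes were. For gland basal over skin basal cells 5 of 11 were higher and 2 lower, where 23.5% and 17.6% were. In Krt24 follicle cells, the members with small differences were Lrig1 (52.7 against 25.5 CPM, 2.07-fold), Gata6 (22.2 against 8.32), Prdm1 (9.70 against 5.82) and Plet1 (149 against 279). Lrig1 was the weakest call, since it fell below 2-fold under 8 of the alternatives, down to log2 0.16 with gate thresholds doubled, and Gata6 was at log2 0.92 in thinned cells.

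**Figure D2:**
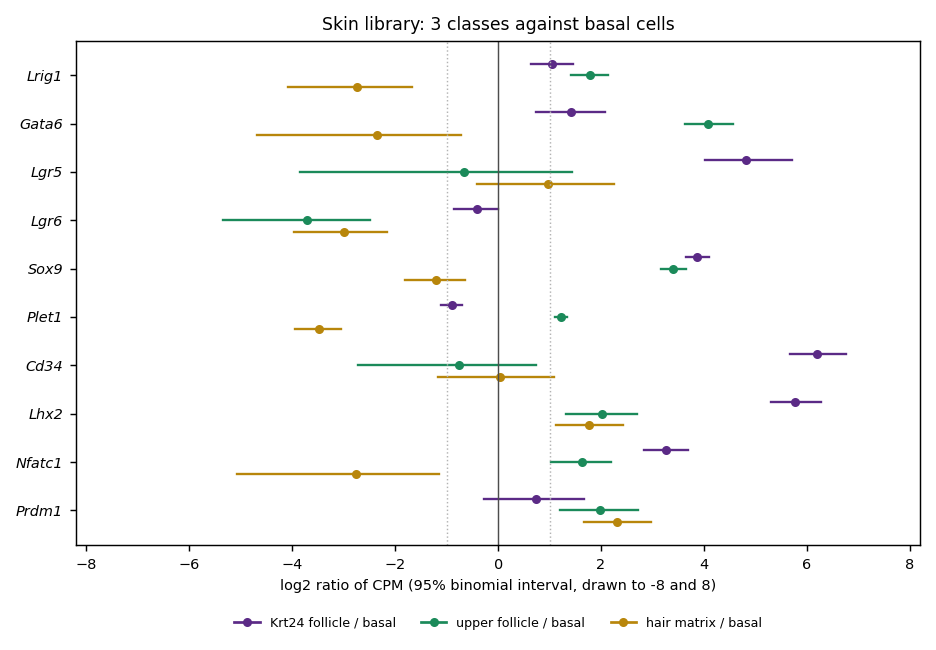
Log2 ratio of CPM of Krt24 follicle (purple), upper follicle (green) and hair matrix cells (yellow) over basal cells of the skin library, for each gene, with exact 95% binomial intervals; dotted lines mark 2-fold. Cd34 and Lhx2 stand at 6.19 and 5.77 in Krt24 follicle cells, Gata6 at 4.08 in upper follicle cells, and Plet1 at -3.48 in hair matrix cells.

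With the main gates, upper follicle cells had the highest levels of Gata6 and Plet1 among the epithelial classes of skin. Against basal cells, 7 of 10 members were at least 2-fold higher, where 10.7% of 11726 genes did, and 1 of 10 was lower where 14.4% were. Gata6 was at 141 CPM (121 to 163; 179 UMIs), against 42.3 in Krt17 keratinocytes, 22.2 in Krt24 follicle cells and 8.32 (6.17 to 10.97) in basal cells, a 16.9-fold ratio to the last. Its UMIs were seen in 31.9% (27.2 to 36.8) of upper follicle cells and 2.15% of basal cells, and in 0 of 296 immune cells, which allows a share of up to 1.01%.

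Plet1 was at 651 CPM (608 to 697; 828 UMIs) in upper follicle cells, 343 in Krt17 keratinocytes, 279 (265 to 292) in basal cells, 149 in Krt24 follicle cells, 116 in sebocytes and 24.9 in hair matrix cells. The excess over basal cells was 2.34-fold. It depended on how classes were drawn, since with classes taken from clusters the log2 ratio of Plet1 turned from 1.22 to -0.43 and that of Prdm1 from 1.97 to -0.51. In skin, 2 clusters led by the wound keratin Krt16 and by Serpinb2 or Sprr1a held the highest Plet1 of any cluster, at 1237 and 1549 CPM, and most cells of the former (256 of 366) were in the basal class. Plet1 is itself among the leading genes of both, so a lower Plet1 level of skin basal cells without them follows from the choice of clusters. Without both clusters Plet1 no longer fell in sebocytes, as given below. Their removal also took cells from the upper follicle class (386 to 356) and from Krt17 keratinocytes (827 to 781). Over the alternatives run, the log2 ratio of Plet1 in Krt17 keratinocytes over basal cells ranged from -1.84 to 1.81. Between Krt79 cells of PG and upper follicle cells, too, the direction of Plet1 changed among the alternatives, as given below.

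Lrig1 was at 87.3 CPM (71.8 to 105; 111 UMIs) in upper follicle cells, 91.3 (79.2 to 105) in Krt17 keratinocytes, 84.6 (50.9 to 132) in sebocytes, 52.7 in Krt24 follicle cells, 25.5 (21.6 to 29.8) in basal cells and 3.80 (1.53 to 7.82) in hair matrix cells. The first 3 of these neighbours did not differ beyond counting error. Lrig1 restrains ERBB receptors, and a list of ERBB ligands and receptors together with the related genes Lrig2 and Lrig3 was tallied beside it. Of 10 listed genes, 7 were at least 2-fold higher in upper follicle than in basal cells and 0 lower, where 10.7% and 14.4% of all genes were, with a median log2 ratio of 1.31. Areg, an EGFR ligand, was at 101 against 16.6 CPM, Erbb3 at 92.8 against 37.9 and Erbb2 at 70.0 against 27.8, while Egfr was at 82.6 against 77.5.

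Prdm1, a transcriptional repressor, was at 28.7 CPM (21.5 to 37.6) in hair matrix cells, 22.8 (15.3 to 32.8) in upper follicle cells, 13.4 in sebocytes (3 UMIs), 11.7 in Krt17 keratinocytes, 9.70 in Krt24 follicle cells and 5.82 (4.06 to 8.10) in basal cells. It was higher in suprabasal cells, at 41.5 CPM (35.9 to 47.6), a class outside the comparisons.

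Hair matrix cells, as gated here, held less of most members. Of the 388 cells, 142 lay in a cluster led by Krt35 and 78 in one led by Krtap8-1, in which 8.84% and 3.70% of cells were cycling. Of the 10 genes, 6 were at least 2-fold lower than in basal cells where 18.1% of 12000 genes were, and 2 of 10, Prdm1 (4.94-fold) and Lhx2 (3.42-fold), were higher where 20.4% were. With the main gates Plet1 fell most, 11.2-fold to 24.9 CPM, followed by Lgr6 (7.95-fold) and Lrig1 (6.70-fold). This order did not hold throughout. Over the alternatives run, log2 ratios ranged from -6.06 to -1.88 for Plet1, -5.93 to -2.52 for Lgr6 and -4.45 to -2.17 for Lrig1. The basal class holds most cells of a cluster with high Plet1, as given above. Gata6 and Nfatc1 rested on 3 UMIs each, with log2 ratios of -2.35 (-4.68 to -0.72) and -2.75 (-5.07 to -1.14). Sox9 was 2.30-fold lower, but at log2 -0.31 with halved gate thresholds. Beside them, 5 of 7 listed regulators of the matrix were at least 2-fold higher, where 20.4% of all genes were, among them the Wnt effector Lef1 (486 against 2.99 CPM) and the shaft factor Foxn1 (38.5 against 1.497). Cycling cells made up 28.4% of hair matrix and 7.81% of basal cells; without them the members past 2-fold numbered within 1.5 times the counts above.

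Gland basal cells of PG and basal cells of skin differed in 8 of the 10 genes at the 2-fold rule. Lrig1 and Sox9 were higher in the gland (2 of 10, where 23.5% of 12355 genes were) and 6 of 10 were lower, where 17.6% of genes were. These counts depended on the gates: with halved thresholds, which left 371 gland and 1218 skin basal cells, 4 were higher and 2 lower, and the bound on Lhx2 (log2 0.037) no longer gave a direction. Sox9 was at 216 CPM (201 to 233; 709 UMIs) against 36.1, a 5.99-fold ratio, and its UMIs were seen in 44.5% (41.5 to 47.5) of gland basal cells and 6.76% of skin basal cells, with 5.45% in PG immune cells, at median depths of 2784, 2646 and 1870 UMIs. Lrig1 was at 60.7 CPM (52.6 to 69.7; 199 UMIs) against 25.5, a 2.38-fold ratio that stayed past 2-fold under all alternatives run. Cycling cells made up 19.5% of gland basal and 7.81% of skin basal cells; without them the log2 ratio of Sox9 was 2.69 and that of Lrig1 1.27, against 2.58 and 1.25 with them. The 2 basal classes were also drawn at unlike limits of sebocyte markers. Basal cells had to lie below 0.5 of the sebocyte cut-off, which was 60 UMIs per 10000 in PG and 15 in skin. Sebocyte markers had a median of 15.5 UMIs per 10000 in gland basal cells and 0 in skin basal cells. A sebocyte cut-off of 60 in skin too, which gave 2068 skin basal cells, was among the alternatives run. Over all of these the log2 ratio of Sox9 stayed between 2.22 and 3.55 and that of Lrig1 between 1.08 and 1.53. The part of sebocyte markers in these ratios was not tested beyond that.

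Lhx2 had 0 UMIs in the whole PG library, in 15270076 UMIs of cells and in 2575119 UMIs of barcodes with at most 100 UMIs, which allows up to 0.196 CPM in cells. With 0 UMIs set to 3 counts, gland basal cells were 7.45-fold below the 6.82 CPM of skin basal cells. Krt79 cells of PG were 15.2-fold below the 27.5 CPM of skin upper follicle cells in the same way. The exact intervals, which also cover the counting error of skin, ended at log2 -2.53 and -3.55. Lgr6 had 14 UMIs in all of PG, 6 of them in gland basal cells (1.83 CPM, 0.672 to 3.98), which is 28.3-fold below the 51.7 CPM of skin basal cells. The LGR pathway list had 2 of 7 genes at least 2-fold higher in gland basal cells, Lgr4 (64.7 against 17.0 CPM) and Fzd7 (52.2 against 7.32), and 2 lower, Rspo3 (0 against 56.2) and Axin2 (6.71 against 39.4), where 23.5% and 17.6% of all genes were.

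Plet1 was at 45.4 CPM (38.4 to 53.4) in gland basal and 279 CPM in skin basal cells, 6.13-fold lower. Without the 2 skin clusters led by Krt16 or Serpinb2 its log2 ratio moved from -2.62 to -0.82 and that of Prdm1 from -2.67 to -0.97. Plet1 is among the leading genes of both clusters and only skin lost cells, so the direction of its move was fixed by the choice. Prdm1 had 0 UMIs in 1104 gland basal cells, which allows up to 0.915 CPM. That limit was 6.36-fold below skin basal cells, and the exact interval ended at log2 -2.29. Nfatc1 (4.27 against 10.98 CPM, 14 UMIs) and Lgr5 (0.915 against 2.50 CPM, 3 UMIs) were lower by 2.57-fold and 2.73-fold, the latter with an interval from log2 -3.88 to 0.37; both calls were lost with classes taken from clusters, at log2 -0.82 and -0.21. Gata6 (9.46 against 8.32 CPM) and Cd34 (9.46 against 5.32 CPM) did not pass the rule. Of the neighbours of upper follicle and sebaceous progenitors, 6 of 8 were lower in the gland, where 17.6% of all genes were, among them Klf5 (11.3 against 381 CPM), Klf4 (11.3 against 421) and Gata3 (55.8 against 295), while Myc was higher (103 against 24.0). In upper follicle over basal cells of skin, 2 of the 8 were higher and 2 lower, where 10.7% and 14.4% of all genes were.

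**Figure D3:**
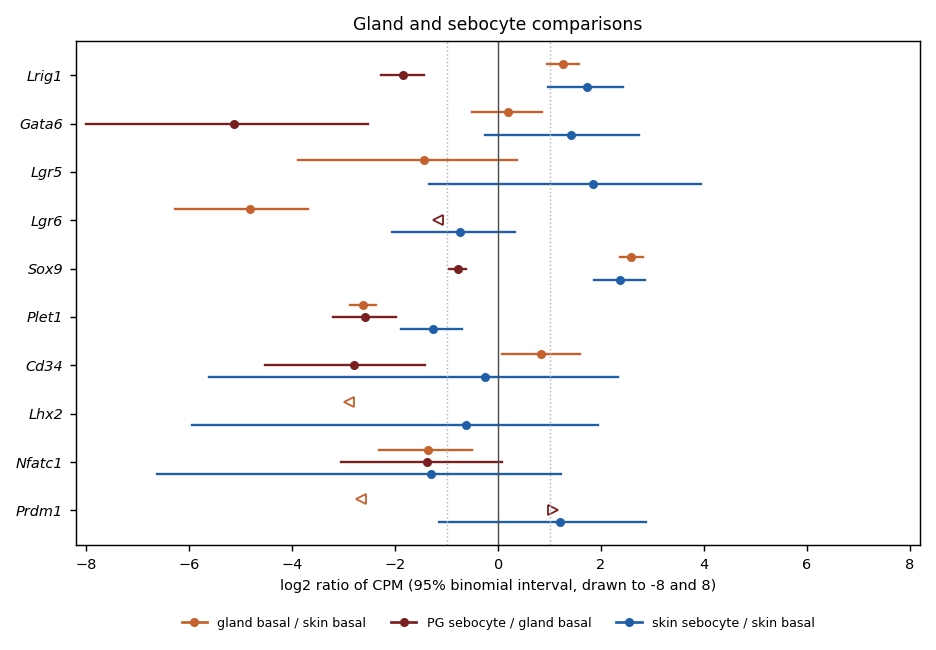
Log2 ratio of CPM of gland basal over skin basal cells (orange), PG sebocytes over gland basal cells (dark red) and skin sebocytes over skin basal cells (blue), with exact 95% binomial intervals drawn to -8; open triangles are bounds where a class held 0 UMIs and dotted lines mark 2-fold. Sox9 stands at 2.58, -0.79 and 2.37 and Lrig1 at 1.25, -1.85 and 1.73.

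Within PG, none of the members was at least 2-fold higher in sebocytes than in gland basal cells (0 of 6 with enough UMIs, where 8.55% of 11345 genes were), and 5 of 6 were lower, where 20.5% were. Lrig1 was at 16.9 CPM (12.9 to 21.6) in sebocytes against 60.7, 3.60-fold lower, Plet1 at 7.61 against 45.4, 5.97-fold lower, and Cd34 at 1.36 against 9.46, 6.96-fold lower. Gata6 had 1 UMI in 660 sebocytes and 31 in gland basal cells, a log2 ratio of -5.12 (-10.47 to -2.54). Nfatc1 fell from 14 to 6 UMIs and 2.62-fold, with an interval from log2 -3.06 to 0.08. Sox9 stayed at 125 CPM (114 to 137) against 216, 1.73-fold lower, with UMIs in 43.6% of sebocytes at a median depth of 5408 UMIs and in 11.3% after thinning. Its level was above the 3.95 CPM that free RNA would give. Prdm1, known for sebaceous cells, had 7 UMIs in PG sebocytes (1.90 CPM) and 0 in gland basal cells.

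Skin sebocytes were 51 cells with 224597 UMIs, so only Sox9 (42 UMIs), Plet1 (26) and Lrig1 (19) held more than 10 UMIs in them. Sox9 was at 187 CPM against 36.1 in skin basal cells (5.18-fold higher, log2 interval 1.86 to 2.86) and Lrig1 at 84.6 against 25.5 (3.32-fold, 0.96 to 2.43), while Plet1 was at 116 against 279 (2.41-fold lower). By the rule, 5 of 10 were higher where 17.8% of 11422 genes were, and 2 of 10 lower where 11.1% were, but Gata6, Lgr5, Prdm1 and Nfatc1 rested on 5, 2, 3 and 1 UMIs with intervals that span 0. In these cells the basal markers had a median of 30.4 UMIs per 10000, close to the 35.2 of the sebocyte markers; in PG sebocytes the medians were 12.2 and 109. Inner root sheath markers had a median of 0 in skin sebocytes but a mean of 36.8 per 10000, against a mean of 0.041 in PG sebocytes, and upper follicle markers had medians of 10 and 3.92. The part of these signals in the members' levels was not tested. Lrig1 in skin sebocytes was at log2 -0.41 in cells thinned to 1000 UMIs, where few of its 19 UMIs remained. Plet1 was at 0.53 without the clusters led by Krt16 or Serpinb2.

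Sebocytes of the gland and of skin, as gated here, held Sox9 at 125 and 187 CPM, 1.49-fold apart. The PG class needed a higher marker sum than the skin class (60 against 15 UMIs per 10000). Lrig1 (16.9 against 84.6 CPM, 5.02-fold), Plet1 (7.61 against 116 CPM, 15.2-fold) and Prdm1 (1.90 against 13.4 CPM on 7 and 3 UMIs, log2 -2.81 with an interval from -4.94 to -0.23) were lower in PG sebocytes. They were 3 of the 4 members with at least 10 UMIs in both classes together, where 19.1% of 10092 genes were lower, and 0 of 4 were higher, where 14% were. A cut-off of 60 in skin too left 15 skin cells. With it, the log2 ratio of Lrig1 moved from -2.33 to -1.54 and that of Sox9 from -0.58 to 0.19. With all cells thinned to 1000 UMIs the log2 ratio of Lrig1 was 0.0065, where few of its 19 UMIs in skin sebocytes remained. Plet1 stayed between -5.01 and -3.49 under all alternatives run, while Prdm1 was at -0.94 with classes taken from clusters.

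The Krt79 cells of PG, which share markers with skin upper follicle cells, held Plet1 at 489 CPM (456 to 524), 10.8-fold above gland basal cells, and Gata6 at 45.9 CPM (36.1 to 57.4), 4.85-fold above. These were the 2 of 6 members that were at least 2-fold higher, where 10.7% of 11127 genes were, and 0 were lower, where 30.4% were. Lrig1 was at 40.4 CPM (31.3 to 51.3) and Sox9 at 235 CPM, neither past 2-fold from gland basal cells. Set against upper follicle cells of skin, 5 of 8 members were lower, where 22.0% of 9924 genes were. These were Gata6 (3.07-fold), Lrig1 (2.16-fold), Nfatc1 (5.60-fold), Prdm1 (5.40-fold) and Lhx2. Cd34 was higher on 18 and 4 UMIs (1 of 8, where 15.2% were), and Plet1 was at 489 against 651 CPM. Prdm1 was at log2 -0.77 with classes taken from clusters and -0.51 without the clusters led by Krt16 or Serpinb2. Lrig1 was at -0.52 in cells with at least 1000 genes and 2000 UMIs. The log2 ratio of Plet1 was -0.41 and ranged from -0.48 to 0.74 over the alternatives run.

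Across the classes of skin, 24 of 50 pairs of neighbours in the order of levels differed beyond counting error, and 10 of 30 in PG. Over the 59 clusters of both libraries with at least 30 cells, the gene most like each member by Pearson's r of log2(CPM + 10) was Shisa2 for Lhx2 (r = 0.87), Ddah2 for Cd34 (0.87), Slc2a12 for Lgr6 (0.82), Foxc1 for Sox9 (0.79), Gpc4 for Lrig1 (0.78), Ly6d for Plet1 (0.75), Angptl7 for Lgr5 (0.75), Nfkb1 for Nfatc1 (0.73), Smap2 for Prdm1 (0.70) and Fst for Gata6 (0.69). Among the 45 pairs of members, Lrig1 and Sox9 were closest (0.70) and Lrig1 and Prdm1 most opposed (-0.41). Clusters of a library share its depth and free RNA, so these values are a description.

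**Figure D4:**
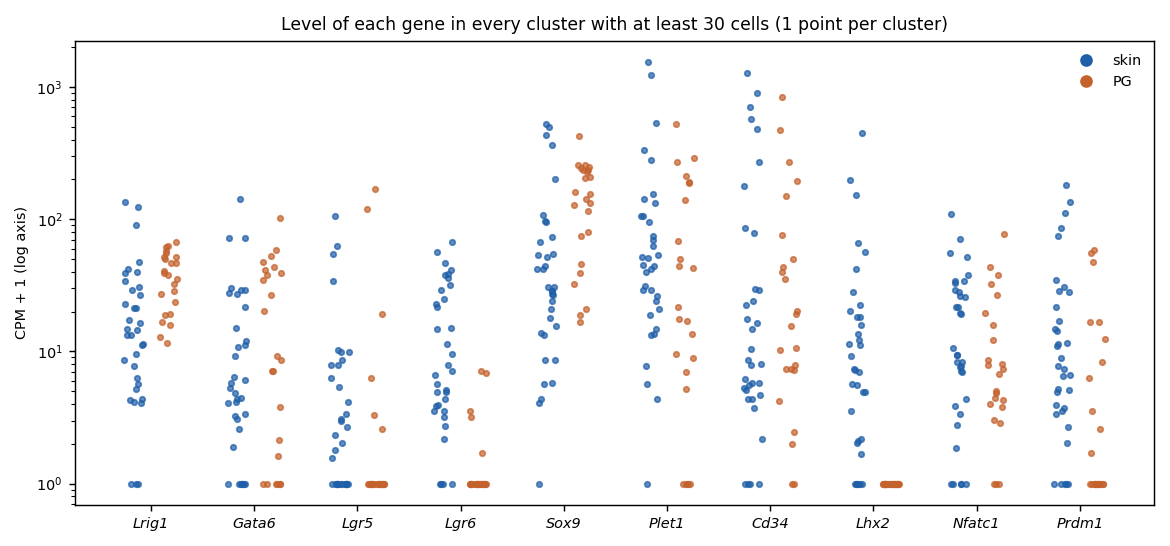
Level of each gene in the 35 skin clusters (blue) and 24 PG clusters (orange) with at least 30 cells, 1 point per cluster, as CPM + 1 on a log axis. Lhx2 is at 0 CPM in all 24 PG clusters, Lgr5 in 18 of them, Plet1 passes 1000 CPM in 2 skin clusters and Cd34 in 1.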

How the data were processed

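Single cells of back skin and PG were measured with a droplet 3′ kit, and each library pooled 3 mice. The authors name a single kit version, although the barcode lists of the libraries differed in length. Any difference of kit between the libraries cannot be told apart from tissue. The authors deposited raw UMI counts per gene and barcode, not normalized, for all listed barcodes; per the submitters' processing notes they came from Cell Ranger 4.0 and mm10. The annotation release is not given in the sources used here. Doublets were not removed in the main analysis.

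Cells were gated by marker UMIs per 10000 with at least 2 markers of a class (3 for sebocytes): basal 30, upper follicle 100 with a Krt79 UMI, Krt24 follicle 15, hair matrix 5, sebocyte 15 in skin and 60 in PG. Basal cells held fewer than 15 upper follicle UMIs per 10000 and lay below 0.5 of each of the other cut-offs. Krt24 follicle cells also had to pass the basal gate. Scores were taken relative to the cut-off of each class. Cells that passed a gate were set aside as mixed (170 and 49) where the score of a second class exceeded 0.5 of the first. In skin 1237 and in PG 859 cells met no class. The cut-offs and the Krt17 keratinocyte class were set after the clusters had been seen, and the members and gene lists were chosen with earlier results of these data known. Krt85 was not used. All 10 members are named. The 3 genes most like a member by correlation over clusters were computed, of which the first is given.

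Levels are CPM over summed UMIs. A class with 0 UMIs was set to 3 counts, which gives a bound. Free RNA was estimated from barcodes with at most 100 UMIs, scaled by fibroblast, endothelial, immune and melanocyte markers in each class. Clusters came from 2000 variable genes without the members, 30 components, 15 neighbours and Leiden at resolution 1.5 (scanpy 1.11.5, leidenalg 0.10.2, igraph 0.11.9). Python 3.11.15, numpy 2.4.6, scipy 1.17.1, pandas 2.3.3, scikit-learn 1.9.0 and matplotlib 3.10.9 were used. In a test on simulated data for Krt24 follicle over skin basal cells with 7855 genes, 99.5% of 4-fold changes were called, 0.640% of unchanged genes were called and 95.9% of intervals held the true ratio. The counts were drawn with Poisson error alone, and the genes scored had at least 50 UMIs in skin basal cells. Lgr5 (15 UMIs), Cd34 (32), Prdm1 (35) and Lhx2 (41) lay below that limit, so these rates do not cover them. Cells are not replicates, so no p-value is given. Alternatives covered cell filters, doublet removal, gates, denominators, depth, free RNA, cycling cells and thresholds.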

Additional observations from a re-analysis of the deposited data

Results flagged for a closer look

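In 3 cases a contrast of classes of the same name ran in opposite directions in the libraries, with both counting intervals clear of 0. The difference itself was not tested, since each tissue has 1 library. Lrig1 in cells of the upper follicle gate against basal cells had a log2 ratio of 1.78 in skin and -0.59 in PG. In sebocytes against basal cells, Lrig1 had 1.73 in skin and -1.85 in PG, and Sox9 had 2.37 in skin and -0.79 in PG. The skin sebocyte values rest on 51 cells. Lrig1 there turned to -0.41 in thinned cells, where few of its 19 UMIs remained. The sebocyte cut-off was 15 UMIs per 10000 in skin and 60 in PG, and basal cells lay below 0.5 of it. Sebocyte and basal classes were therefore drawn at unlike limits in the libraries. With a cut-off of 60 in skin too, which left 15 skin sebocytes, Lrig1 in skin sebocytes over basal cells was at log2 0.88. Over all alternatives run, that cut-off included, Sox9 there stayed between 1.55 and 3.26. Lrig1 in upper follicle over basal cells of skin stayed between 1.27 and 2.48. The cause of the 3 cases was not tested.

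Some members were at least 2-fold higher in classes outside the comparisons than in any gated epithelial class of their library. Cd34 was at 787 CPM in skin fibroblasts, and at 453 CPM in fibroblasts and 299.9 CPM in endothelial cells of PG, types in which it is a known surface marker. Lgr5 was at 90.8 CPM in PG fibroblasts, which held 104 of its 108 UMIs in PG. Nfatc1 was at 21.8 CPM in fibroblasts and 31.7 CPM in immune cells of PG, and Prdm1, a factor of plasma and T cells, at 57.0 CPM in PG immune cells.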

How the results depend on the processing

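No paired analysis was possible because each tissue has 1 library, and no replicate could be left out. Of 62 member ratios past 2-fold in the 10 comparisons, 39 stayed past it under every alternative run and 23 did not under at least 1; the cause was not tested. Over the alternatives, the 7 higher ranged from 5 to 8 in Krt24 follicle, 5 to 7 in upper follicle and 6 to 9 in Krt17 keratinocytes, each over basal cells. The 6 lower in hair matrix cells ranged from 5 to 7 and the 5 lower in PG sebocytes from 4 to 6. For Krt79 cells over skin upper follicle cells the 5 lower ranged from 4 to 6. Counts that changed by more than 1.5 times, or to or from 0, were as follows. In Krt24 follicle over basal cells, 0 lower became 1 with doublet removal, doubled gates, the mean over cells and 1.5-fold. In upper follicle over basal cells, 1 lower became 3 with doublet removal, doubled gates and 1.5-fold, and 2 with the mean over cells. In hair matrix cells, 2 higher became 4 with halved gates. In gland basal over skin basal cells, 2 higher became 4 and 6 lower became 2 with halved gates (371 and 1218 cells), and 2 higher became 1 at 3-fold. In PG sebocytes, 0 higher became 1 with no minimum of UMIs. In skin sebocytes, 5 higher became 2 with doubled gates and 2 with a cut-off of 60, and 3 with thinned cells and at 3-fold; 2 lower became 0 with doubled gates, thinned cells and 3-fold, 4 at 1.5-fold, and 1 without the clusters led by Krt16 or Serpinb2. In Krt17 keratinocytes, 1 lower became 2 with cluster classes and 0 at 3-fold. In PG Krt79 over gland basal cells, 0 lower became 1 with doubled gates, thinned cells and 1.5-fold, and over skin upper follicle cells 1 higher became 0 with thinned cells and at least 30 UMIs. In PG over skin sebocytes, 3 lower became 5 with halved gates, 6 with cluster classes and 7 with no minimum of UMIs. The cut-off of 60, the cluster removal and all alternatives for the last 4 comparisons were chosen after seeing the data.

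Among ratios past 2-fold, the sign changed for Lhx2 in gland basal cells with halved gates (log2 0.037, an upper bound from 0 UMIs that shows no direction) and, in skin sebocytes over basal cells, Lrig1 with thinned cells (-0.41), Nfatc1 with doubled gates (0.57), cluster classes (1.71), thinned cells (2.42) and the cut-off of 60 (1.77), Plet1 without the clusters led by Krt16 or Serpinb2 (0.53) and Prdm1 with cluster classes (-1.42). Nfatc1 had 1 UMI in skin sebocytes with the main gates. Its values other than that of cluster classes rest on this UMI or on 0 UMIs set to 3 counts, and show no direction. With cluster classes, which put 550 skin cells into the sebocyte class, Plet1 (-0.43) and Prdm1 (-0.51) also reversed in upper follicle cells. In PG over skin sebocytes Lrig1 turned to 0.0065 with thinned cells. Both values of Lrig1 in thinned cells rest on few of its 19 UMIs in skin sebocytes. Ratios that had not passed 2-fold, or had too few UMIs for the rule, changed sign too. Among them were Plet1 in Krt24 follicle cells (-0.90, and 0.73 without the clusters led by Krt16 or Serpinb2) and Prdm1 in PG sebocytes (1.06, and -0.61 with halved gates). Lhx2 (-0.62) and Cd34 (-0.26) in skin sebocytes were at 3.18 and 2.71 with thinned cells. Each had 1 UMI there before thinning, so these are upper bounds from 0 UMIs that show no direction.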

Other observations

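Lrig1 was highest, among the clusters of skin, in a cluster of 550 cells led by Cidea, Sostdc1, Elovl6 and Scd1 (133 CPM, 181 UMIs) and in one of 411 cells led by Cmah, Gjb2 and Slc7a8 (122 CPM, 129 UMIs). The latter cluster also had the highest Lgr5 of skin (105 CPM, 111 UMIs) and Lhx2 at 150 CPM, and 294 of its cells were Krt17 keratinocytes.

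Prdm1 was highest in a skin cluster of 82 cells led by Gpnmb, Soat1 and Kitl (181 CPM, 54 UMIs), followed by the cluster led by Sprr1a (133 CPM) and one led by the cornified envelope genes Lor and Lce1m (111 CPM). In PG, Lgr5 reached 168 and 118 CPM in the 2 fibroblast clusters led by Id3 and Pi16.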
